A study of Arabidopsis thaliana with 3 samples.

Results

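The genes described here are the photosynthesis genes of the chloroplast genome of Arabidopsis thaliana, read in germinating pollen and in seedlings. They were chosen as plastid genes with a symbol starting psa, psb, pet, ndh, atp or rbcL whose probe set, the group of short oligonucleotides that reads a gene on an Affymetrix ATH1 array, has exactly 1 gene in the platform annotation. This gave 43 genes on 43 probe sets, of 13356 genes with a probe set of their own and of 22746 probe sets in all that are not array controls. They are 15 genes of photosystem II, 6 of the cytochrome b6f complex, 5 of photosystem I, 10 of the NDH complex, 6 of the ATP synthase and rbcL of Rubisco. Of the 44 plastid symbols that match these letters, ndhB is not a member, since its probe set matches both copies of that gene.

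All RNA came from the Col-0 accession. The germinating pollen group has 2 arrays. Per the labels, its pollen was released by touching open flowers to cellophane and had germinated to about 80%. The pollen was kept for 6 h at 25°C in the dark on a medium with 13.5% sucrose and 10 mM CaCl2. The seedling group has 1 array, made from whole seedlings with roots and their first rosette leaves, grown on sucrose-containing plates. The seedlings were kept at 22°C in the light and 18°C in the dark. Day length is given as 18 h of light in the sample label and as 16 h in the study's description. Pollen RNA was hybridised in duplicate, and no source tells whether it came from separate plants. Every p-value therefore rests on the spread between those 2 arrays, which may be technical. For each probe set the fit draws that spread towards the spread of probe sets of like brightness.

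Chloroplasts keep a small genome of their own that encodes the core subunits of the thylakoid complexes, while the nucleus encodes the remaining subunits and the antenna proteins. Photosystem II splits water, cytochrome b6f passes electrons on to photosystem I, the NDH complex returns electrons around photosystem I, and the ATP synthase uses the resulting proton gradient. Rubisco fixes carbon dioxide with a large subunit from the plastid gene rbcL and small subunits from nuclear genes. Plastid genes are mostly transcribed in groups as long precursor RNAs, by a bacterial-type polymerase that uses nuclear sigma factors and by a phage-type polymerase. Pollen grains hold small, unpigmented plastids, and in Arabidopsis plastids are inherited almost entirely from the mother. Labelling on this platform starts from a primer that binds poly(A), and most plastid transcripts carry no long poly(A) tail, so the brightness of different plastid probe sets does not rank the amounts of their transcripts.

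The highest of 27 control probe sets for bacterial transcripts, which have no target in plant RNA, read 47.1 and 65.7 on the germinating pollen arrays and 14.3 on the seedling array. These values are used below as the top of the background of each array. It was passed by 30.6% of all 22746 probe sets on both pollen arrays and by 72.7% in seedlings. All arrays had the same trimmed mean signal of about 122 as deposited, and the hybridisation spikes were on average 4.76 and 4.90 times as bright on the pollen arrays as on the seedling array. Listed genes count as measured here only if a probe set has them as its only gene in the platform annotation. That annotation gives 1 gene for 13513 probe sets and several for 503. A listed gene that is not counted may still have a probe set on the array. Of 8 listed genes of the pollen vegetative cell and tube 7 were measured, and all 7 were higher in pollen, as was MGH3 of the sperm cells, the 1 measured of 4. Of 7 listed tapetum markers 2 were measured. The tapetum markers A9 and AMS were at or under the top of the background on all 3 arrays, and their summed signals were 23.7 and 88.0 in pollen and 3.04 in seedlings. Of 4 measured flower organ markers out of 6, NGA1 was lower in pollen, and 3 did not pass. NGA2 and SPT were above that level on both pollen arrays and RBE on 1, with summed list signals of 310 and 290.3 in pollen and 195 in seedlings. Whether RNA of flower organs has a part in the pollen signals given below was not tested.

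Plastid photosynthesis genes were lower in germinating pollen than in seedlings across every complex, and none was called higher. Of the 43 probe sets, 33 were lower and 0 higher with limma and Benjamini-Hochberg adjustment over all 22746 probe sets, where 13.9% of all probe sets were lower and 11.5% higher. At an unadjusted p under 0.05, 38 were lower and 0 higher, where 23.0% and 16.6% of all probe sets were. The median log2 difference of the members, germinating pollen minus seedlings, was -5.23, against 0.07 over all probe sets tested. Together the 43 made up 0.0161% and 0.0215% of all signal in germinating pollen, and 1.95% in seedlings. Their summed signals were 1227 and 1620 in pollen, mostly at background, and 78304 in seedlings. All signal summed to 7631200 and 7536990 in pollen and 4023140 in seedlings, so the shares differ by more than the member sums do. In bulk RNA, fewer plastids or plastid genomes and fewer transcripts per plastid cannot be told apart. The pollen was also kept in the dark and the seedlings had light, and labelling starts from poly(A), which most plastid transcripts carry little of. Whether light or the share of labelled transcripts has a part in the difference was not tested.

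**Figure D1:**
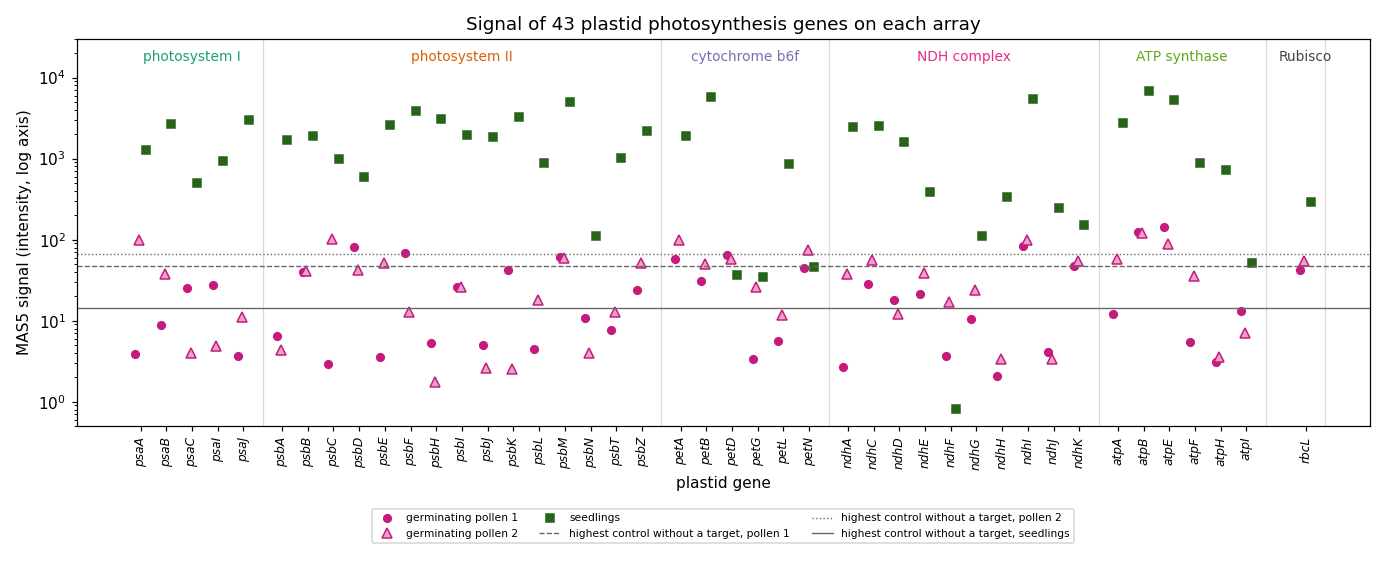
Signal of each of the 43 genes (log axis) on germinating pollen array 1 (circles), germinating pollen array 2 (triangles) and the seedling array (squares), grouped by complex, with a horizontal line at the highest control without a target for each array. Only atpB, atpE, ndhI and petA lie above both pollen lines on their own arrays, whereas 42 of 43 seedling signals lie above the seedling line.

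On the seedling array 42 of the 43 members were above the top of the background, with signals of up to 6894, and 24 had a signal of at least 1000. On the pollen arrays 31 members were at or under the top of the background on both arrays, 8 were above it on 1 array and 4 on both, which is 9.30% of the members against 30.6% of all probe sets. The highest member signal on the pollen arrays was 141, and 39 members stayed under 100 on both. A signal under 100 is common there, with medians over all probe sets of 38.6 and 42.5, against 13.0 and 35.8 for the members. In seedlings the medians were 46.8 over all probe sets and 1280 for the members. For 40 of the 43, both pollen signals lay under the seedling signal, as they did for 42.2% of all probe sets. Where a pollen signal was at background, a fold is given as a bound, the seedling signal over the geometric mean of the pollen signals, each raised to the top of its array's background where it was lower. By that measure, which is not a test, 29 of the 43 members were at least 10-fold lower in pollen, against 4.46% of all probe sets. Of these, 27 were called lower with limma, while psaA and psbC did not pass.

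Nearly all plastid-encoded genes of photosystem II were lower in germinating pollen, 13 of 15, and the median log2 difference was -5.58. psbA encodes the reaction centre protein that is replaced most often in the light, and its signal was 6.42 and 4.34 in germinating pollen and 1703 in seedlings. Both pollen signals were far under the background top, so the gene was at least 30.6-fold lower (log2 difference -6.42, SE 0.42, limma adjusted p = 0.00196). psbD, its partner in the reaction centre, read 80.4 and 41.9 in pollen and 593 in seedlings. It lay above the background on the first pollen array only and was at least 8.16-fold lower (log2 difference -3.05, limma adjusted p = 0.0156).

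The inner antenna proteins that pass light energy to the reaction centre are encoded by psbB and psbC. psbB had 40.0 and 41.4 in germinating pollen and 1892 in seedlings, and was at least 34.0-fold lower (limma adjusted p = 0.000861). psbC had 2.95 and 102 in pollen and 1002 in seedlings. Its pollen arrays disagreed more than those of any other member, with a log2 SD of 1.92, and although both were under the seedling signal the gene did not pass (log2 difference -4.48, limma adjusted p = 0.0762). psbE and psbF encode the cytochrome of the reaction centre. psbE read 3.61 and 50.8 in pollen and 2620.3 in seedlings, and psbF read 68.5 and 12.9 in pollen and 3854 in seedlings. Their pollen arrays differed in opposite directions, and both genes were lower, by at least 47.1-fold and at least 57.5-fold.

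Most plastid genes of photosystem II encode small membrane subunits. psbH, which takes part in assembly and repair, had 5.28 and 1.77 in germinating pollen and 3078 in seedlings. Both pollen signals were below the top of the background, and the gene was at least 55.3-fold lower (log2 difference -7.41, SE 0.39, limma adjusted p = 0.00115). psbM had 61.3 and 59.9 in pollen and 5042 in seedlings. It was at least 79.4-fold lower, with pollen arrays that differed by a log2 SD of only 0.02 (SE 0.17, limma adjusted p = 0.000229). psbK had 41.7 and 2.52 in pollen and 3306 in seedlings, at least 59.4-fold lower, whereas psbI, transcribed together with it, had 26.1 and 25.8 in pollen and 1936 in seedlings, at least 34.8-fold lower. psbJ, psbL, psbT and psbZ were also lower, with bounds of at least 33.3-fold, 16.1-fold, 18.2-fold and 38.9-fold. psbN, which in tobacco assists the assembly of photosystem II rather than being part of it, had 10.9 and 3.97 in pollen and 110 in seedlings. Its seedling signal was the lowest of this complex, and the gene did not pass (log2 difference -2.51, limma adjusted p = 0.0602).

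Within the cytochrome b6f complex the genes fell into 3 that were lower in germinating pollen and 3 that did not pass, and the median log2 difference was -2.64. petB encodes the cytochrome that binds quinol, and had 30.9 and 49.8 in pollen and 5758 in seedlings. It was at least 103-fold lower (log2 difference -6.73, SE 0.29, limma adjusted p = 0.00068). petA encodes cytochrome f, and had 57.2 and 100.3 in pollen and 1911 in seedlings. Both pollen signals lay above the background top, so a ratio can be given, 25.2-fold lower (log2 difference -4.40, SE 0.36, limma adjusted p = 0.00347). petL, a small subunit, read 5.70 and 11.9 in pollen and 858 in seedlings and was at least 15.4-fold lower (limma adjusted p = 0.00523).

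The other b6f genes were dim in both tissues. petD encodes the quinol-binding partner of the petB product, and its probe set read 64.5 and 58.4 in germinating pollen and 36.2 in seedlings (limma adjusted p = 0.453). petN read 44.5 and 73.9 in pollen and 45.7 in seedlings (limma adjusted p = 0.751), and petG read 3.36 and 26.1 in pollen and 35.1 in seedlings (limma adjusted p = 0.418). petN and petG encode small subunits of the complex. The petD and petN differences, 0.58 and 0.26 on the log2 scale, turned to -1.24 and -1.60 when the arrays were scaled by their hybridisation spikes, without passing, so their direction is not settled. For petG that scaling gave -2.46, which passed. The same scaling moved the median of all probe sets by -1.64, and 50.0% of all probe sets were called lower under it.

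In photosystem I 4 of 5 genes were lower in germinating pollen and the median log2 difference was -5.05. psaA and psaB encode the core proteins that carry the primary electron donor. psaB had 8.87 and 37.3 in pollen and 2697 in seedlings, and was at least 48.5-fold lower (log2 difference -6.27, limma adjusted p = 0.00483). psaA had 3.86 and 97.8 in pollen and 1280.4 in seedlings. The second pollen array was above the background and the first was not, their log2 SD was 1.84, and the gene did not pass (log2 difference -4.82, limma adjusted p = 0.0585). psaC encodes the iron-sulphur protein at the stromal side, which hands electrons to ferredoxin, and had 25.7 and 3.99 in pollen and 496 in seedlings. It was at least 8.91-fold lower (log2 difference -4.21, limma adjusted p = 0.023). The small subunits psaJ and psaI read 3.64 and 11.2, and 27.9 and 4.89, in pollen, and 3033 and 943 in seedlings. They were at least 54.5-fold and 16.9-fold lower (limma adjusted p = 0.00137 and 0.0114). With 1 pollen array left out, the median of this complex was -5.61 (array 2 kept) or -6.12 (array 1 kept), and psaA, psaB, psaC and psaI differed between the pollen arrays by a log2 SD of 0.78 to 1.84.

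The NDH complex is much less abundant in leaves than the photosystems, and 7 of its 10 genes were lower in germinating pollen, with a median log2 difference of -4.08. ndhI, an iron-sulphur subunit, had 82.3 and 99.5 in pollen and 5493 in seedlings. It was above the background on all arrays and 60.7-fold lower (log2 difference -5.71, SE 0.18, limma adjusted p = 0.000311). ndhA, a membrane subunit, had 2.70 and 37.5 in pollen and 2421 in seedlings, and was at least 43.5-fold lower (log2 difference -6.33, SE 0.76, limma adjusted p = 0.0101). The membrane subunits ndhC and ndhD read 28.2 and 55.8, and 18.0 and 12.0, in pollen, and 2544 and 1588 in seedlings, so that they were at least 45.7-fold and 28.5-fold lower. ndhE, ndhH and ndhJ had seedling signals of 388, 340.3 and 246, and were lower by at least 6.98-fold, 6.12-fold and 4.42-fold.

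The remaining NDH genes did not pass. ndhG read 10.5 and 24.2 in germinating pollen and 111 in seedlings (log2 difference -2.00, limma adjusted p = 0.113). ndhK read 47.7 and 54.5 in pollen and 150.4 in seedlings (log2 difference -1.33, limma adjusted p = 0.0986). In both genes the pollen arrays were under the seedling array. ndhF, a large membrane subunit, read 3.64 and 16.9 in pollen and 0.811 in seedlings. It was the only member under the top of the background on all 3 arrays, so no direction is given (limma adjusted p = 0.328).

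The ATP synthase genes were lower in 5 of 6 cases, with a median log2 difference of -5.36, and they include the members with the brightest pollen signals. atpB encodes the catalytic beta subunit, and had 124 and 119.8 in germinating pollen and 6894 in seedlings. It was above the background on all arrays and 56.5-fold lower, with the smallest adjusted p of all members (log2 difference -5.66, SE 0.14, limma adjusted p = 0.00015). atpE, the epsilon subunit, is read from the same transcript, and had 141 and 89.4 in pollen and 5259.8 in seedlings, 46.8-fold lower (log2 difference -5.37, SE 0.29, limma adjusted p = 0.00128). atpA, the alpha subunit, had 12.2 and 57.6 in pollen and 2774 in seedlings, and was at least 49.9-fold lower (log2 difference -5.98, limma adjusted p = 0.0085). Of the membrane part, atpF read 5.39 and 35.8, and the ring subunit atpH 3.13 and 3.61, in pollen, with 872 and 721 in seedlings. Both were lower, by at least 15.7-fold and 13.0-fold. atpI, the membrane subunit beside the ring, read 13.0 and 7.05 in pollen and 52.1 in seedlings and did not pass (log2 difference -1.44, limma adjusted p = 0.145).

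rbcL, the gene of the large subunit of Rubisco, had 41.9 and 54.5 in germinating pollen and 294 in seedlings. Both pollen signals were under the background of their arrays and under the seedling signal, and the gene was at least 5.28-fold lower (log2 difference -2.30, SE 0.38, limma adjusted p = 0.023).

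**Figure D2:**
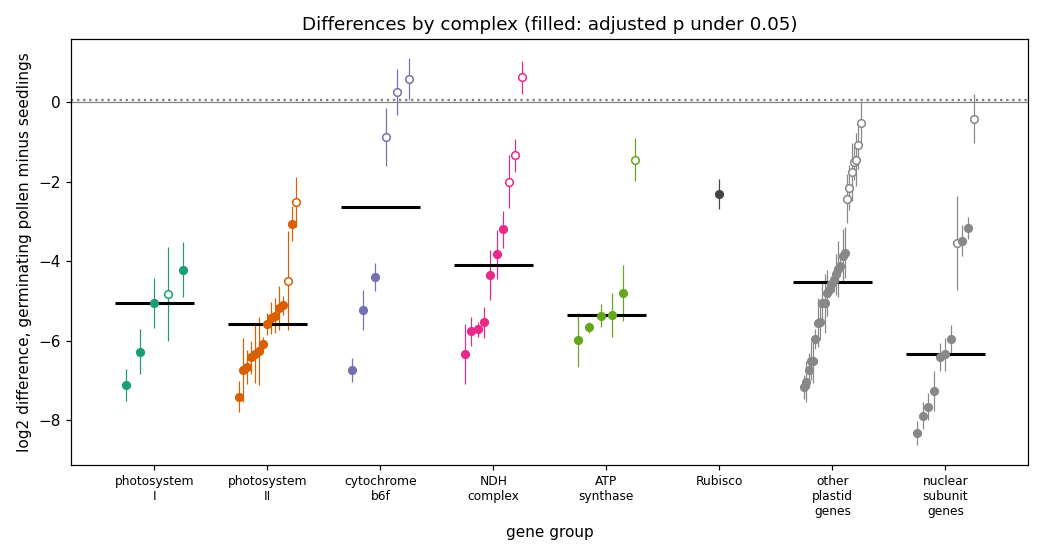
Log2 difference, germinating pollen minus seedlings, of each gene with its limma standard error, by complex and, at the right, for 26 other plastid genes and 11 nuclear genes of subunits of the same complexes. Filled points passed an adjusted p of 0.05, black bars are medians and the dotted line is the median of all probe sets, 0.07. Among the thylakoid complexes, which leave out rbcL, the medians lie between -5.58 in photosystem II and -2.64 in cytochrome b6f. The 26 other plastid genes are at -4.52 and the nuclear genes at -6.34. Most pollen signals were at background, so the medians depend on seedling brightness and do not rank the complexes.

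The 33 called members had seedling signals of 246 to 6894 and pollen signals of 1.77 to 141. Of the 10 that did not pass, 8 had seedling signals of 0.811 to 150.4, below every called member, with pollen signals of 3.36 to 73.9. These 8 are psbN, petD, petG, petN, ndhF, ndhG, ndhK and atpI. The other 2, psaA and psbC, had bright seedling signals and pollen arrays that disagreed. The 10 include 3 of the 6 b6f genes and 3 of the 10 NDH genes. Median seedling signals were 1892 in photosystem II, 1823 in ATP synthase and 1280 in photosystem I. They were lowest in cytochrome b6f and NDH, 452 and 364, the complexes with the smallest median differences. Since most pollen signals were at background, the medians do not rank the complexes by their change. No test sets complexes against each other, since genes of a complex are not replicates.

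The pollen arrays disagreed on several members. The log2 SD between them was over 1 for 7 members, and 5 of these, psaA, psbC, psbE, ndhA and atpA, were brighter on pollen array 2, while psbF and psbK were brighter on array 1. The median log2 SD of the members was 0.40, against 0.27 over all probe sets. Members brighter on array 2 numbered 26 of 43, as were 52.3% of all probe sets, and the top of the background was also higher on that array, 65.7 against 47.1.

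**Figure D3:**
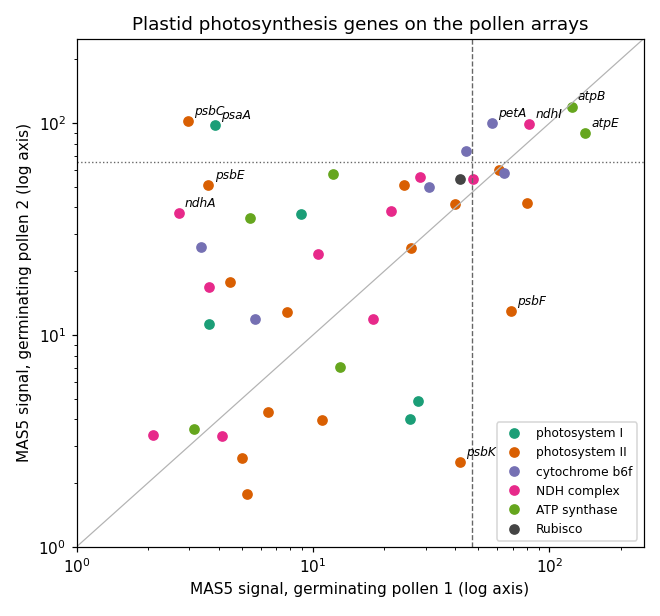
Signal of the 43 genes on germinating pollen array 1 (horizontal, log axis) against array 2 (vertical, log axis), coloured by complex, with the line of equality and the highest control without a target of each array (dashed for array 1, dotted for array 2). The genes atpB, atpE, ndhI and petA are in the upper right corner above both, and psaA and psbC are high on array 2 only.

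Many of these genes are transcribed together, and their differences were set side by side for 35 members in 10 such runs, a list made from textbook knowledge after the values had been seen. The closest run was atpB and atpE, which differed by 0.29 on the log2 scale, within the SE of atpE. In the run psbE, psbF, psbL and psbJ all 4 genes were lower and spanned 1.47, with SEs of up to 0.85. In the run psbB, psbT, psbH, petB and petD, the first 4 genes stood between -7.41 and -5.10 on the log2 scale. The last, petD, stood at 0.58. In germinating pollen petB read 30.9 and 49.8 and petD 64.5 and 58.4, while in seedlings petB read 5758 and petD 36.2. petG stood at -0.87 between petL at -5.23 and psaJ at -7.12, and atpI at -1.44 beside atpH at -5.35. ndhK stood at -1.33 between ndhC at -5.54 and ndhJ at -3.82. The seedling signals of petG, atpI and ndhK were 35.1, 52.1 and 150.4. Like that of petD, they lay under the lowest seedling signal of a called member, 246. These smaller differences thus come from probe sets that were dim in seedlings, and do not show that the genes differ from their neighbours in pollen. In the long run ndhH, ndhA, ndhI, ndhG, ndhE, psaC and ndhD, 6 of 7 genes were lower, and ndhG stood at -2.00 beside ndhE at -3.20, with SEs of 0.67 and 0.47. In the run psbD, psbC and psbZ the genes stood at -3.05, -4.48 and -5.43.

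**Figure D4:**
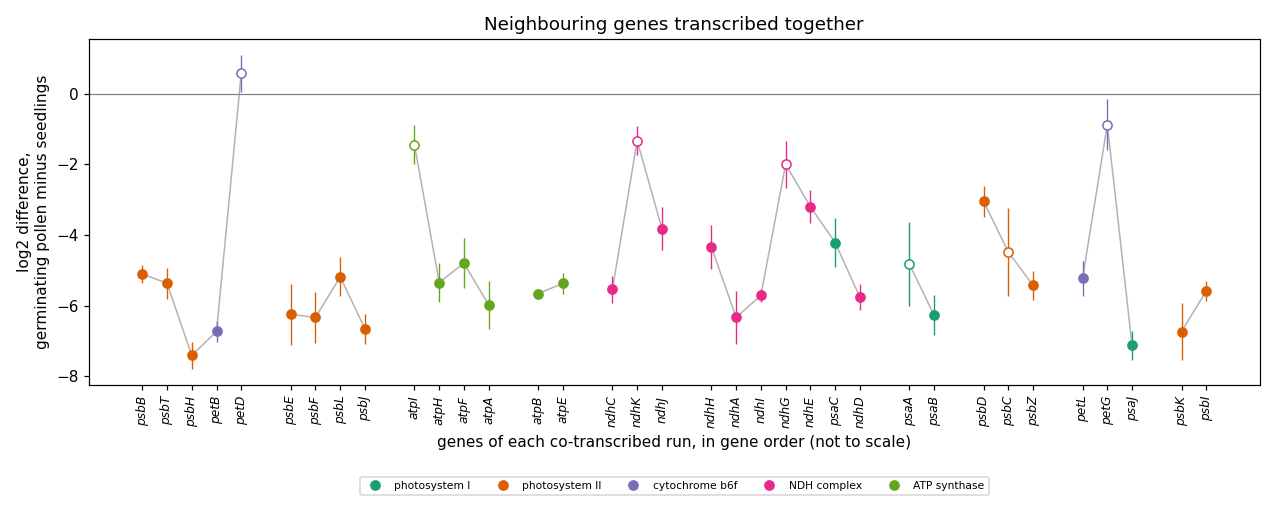
Log2 difference, germinating pollen minus seedlings, with limma standard errors, for the 35 genes of 10 runs that are transcribed together, in gene order. Filled points passed an adjusted p of 0.05 and colours give the complex. The open points are petD, petG, atpI, ndhK, ndhG, psaA and psbC.

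The other protein genes of the plastid genome, which serve gene expression and other functions, were also mostly lower in germinating pollen. With limma, 19 of 26 such genes were lower and 0 higher, against 13.9% and 11.5% of all probe sets. At an unadjusted p under 0.05, 22 were lower and 0 higher, against 23.0% and 16.6% of all. Their median log2 difference was -4.52, against -5.23 for the photosynthesis genes. Above the background on both pollen arrays were 3 of the 26, clpP, ccsA and rpoA, against 30.6% of all probe sets. The difference of the 26 genes from the photosynthesis genes was not tested. In the mitochondrial genome, limma called 0 of 18 probe sets of 11 genes lower and 0 higher (1 lower and 1 higher at an unadjusted p under 0.05). Their median log2 difference was 0.47, but only 8 of the 18 were above the background in seedlings. On the pollen arrays 1 was above it on both, against 30.6% of all probe sets, and 14 on neither. The median thus rests mostly on background signals and does not show whether mitochondrial transcripts differ.

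Nuclear genes for subunits of the same complexes were lower too. Of 58 listed genes 11 were measured on a probe set of their own. The 58 include 6 genes of electron carriers, of which 0 were measured. With limma 9 of them were lower and 0 higher, against 13.9% and 11.5% of all probe sets. At an unadjusted p under 0.05, 10 were lower and 0 higher, against 23.0% and 16.6% of all. Their median log2 difference was -6.34. PSAE-1 had 4.30 and 4.32 in germinating pollen and 6111 in seedlings and was at least 109.8-fold lower, and PSAN was lower by at least 74.2-fold, both being photosystem I genes. PSBW, PSBY and PSB27 of photosystem II were at least 76.7-fold, 82.4-fold and 57.8-fold lower, and PETM of cytochrome b6f at least 81.3-fold. In the ATP synthase, ATPC1, the gamma subunit, read 83.2 and 44.8 in pollen and 4758 in seedlings and was at least 64.4-fold lower, next to the values of atpB and atpE above. ATPC2, a second gamma gene, read 28.2 and 36.3 in pollen and 47.7 in seedlings and did not pass. NDHS and NDHL were at least 10.1-fold and 13.3-fold lower, while NDHN, with 6.68 and 114 in pollen and 592 in seedlings, did not pass (limma adjusted p = 0.113). The pollen arrays disagreed on NDHN as they did on psaA and psbC, with array 2 the higher in all 3.

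Of 20 listed nuclear genes that act in plastid transcription, only RPOTMP, a phage-type RNA polymerase, had a probe set of its own in the platform annotation. That is a limit of the annotation used, and the other listed genes may have probe sets on the array. It read 6.41 and 4.60 in germinating pollen and 9.12 in seedlings, under the top of the background on every array, and did not pass (limma adjusted p = 0.514). The sigma factors were not analysed here.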

How the data were processed

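Total RNA was hybridised to 3 ATH1 arrays, 2 of germinating pollen and 1 of seedlings. The deposited values are signal intensities on a linear scale. Per the submitters' processing notes the authors made them with MAS5, whose version is not given in the sources used here, and the design text names GCOS 1.2 and Excel 2004. The deposited table held no detection calls, and differences are relative to the rest of each array, which had been scaled to a common level. Of 22810 probe sets 64 are controls. Genes were named from the platform annotation through gene IDs in the TAIR10.1 RefSeq table, which matched 13436 of 13513 probe sets with 1 gene, and mitochondrial genes by symbol. No build is named, so no coordinates are given.

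Before taking log2, 14.7 (the 30th percentile of the pooled signals) was added to each signal, so differences of dim probe sets are understated. limma 3.58.1 (R 4.3.3; lmFit, then trended eBayes, two-sided) was fitted over all 22746 probe sets and p-values were adjusted by Benjamini-Hochberg, with 0.05 as the threshold. With 1 seedling array, its spread is taken from the pollen arrays and 1 residual degree of freedom is left, so the number of arrays limits the precision. No filter on dim probe sets was used, since in simulated data a filter on each tissue's level gave more false calls. Also without it, false calls exceeded the nominal share there, so calls near the threshold are not firm.

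The members and lists were chosen with earlier results of these data known. The naming rule covered the members with the largest and smallest difference in each complex and all that did not pass. It also covered rbcL and all members above the highest control on both pollen arrays. The other members were allowed too, and all 43 are named with signals or bounds. Of the nuclear genes, the rule covered up to 3 called genes of each group and all that did not pass.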

Additional observations from a re-analysis of the deposited data

How the results depend on the processing

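The alternatives were planned with the gene lists, except the tissue-wise filter, which was added after the data were seen. All 33 members called lower were called lower again under each of the 8 alternatives that give a test, and 0 members were higher under any. Scaling by the hybridisation spikes called 40 lower, where 50.0% of all probe sets were lower. The tissue-wise filter called 38 of 41 tested (31.7% of all tested probe sets) and the filter at the highest control 36 of 42 (25.9% of all). The larger offset called 35 (16.0% of all) and the fit without a variance trend 34 (11.9% of all). Quantile normalisation, 75th percentile scaling and an offset of 1 each called 33 (10.8%, 9.99% and 11.1% of all). Of the members not called, psaA, psbC, psbN, petG, ndhG, ndhK and atpI passed as lower under spike scaling, and psaA, psbC, psbN, ndhG and atpI also under the tissue-wise filter. Over all probe sets 3161 were lower and 2627 higher as reported, 11381 and 1455 under spike scaling, and 2272 and 3165 under 75th percentile scaling. Spike scaling moved the median of all probe sets by -1.64 and 75th percentile scaling by 0.27, and the members' median was then -7.11 and -4.79. The members' median was -5.58 with quantile normalisation, -5.91 with an offset of 1 and -4.14 with an offset equal to the pooled median of 42.3.

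By complex, spike scaling gave medians of -6.96 (photosystem I), -7.61 (photosystem II), -4.51 (cytochrome b6f), -5.81 (NDH) and -7.33 (ATP synthase). In the same order, the 75th percentile gave -4.59, -5.09, -2.21, -3.70 and -4.89. An offset of 1 gave -6.18, -6.46, -3.18, -5.81 and -5.82, and the larger offset -4.10, -4.86, -2.25, -2.87 and -4.58. Quantile normalisation gave -5.38, -6.33, -2.92, -3.88 and -6.26. Leaving out 1 pollen array leaves 1 array a group and no test. The medians were then -5.61 and -6.12 in photosystem I, -5.33 and -5.81 in photosystem II, -2.18 and -3.10 in b6f, -4.07 and -4.09 in NDH, -5.30 and -5.41 in ATP synthase, and -5.09 and -5.51 over all members. RPOTMP was called lower under spike scaling, 1 gene against 0, where 50.0% of all probe sets were called lower. For shifts in size the cause was not tested. No paired analysis was possible because the groups share fewer than 2 replicate numbers. The planned run without a filter is the main setting. Pollen signals at background limit the folds to bounds.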
